A study of Mus musculus with 6 samples.

Results

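The 9 genes described here encode the voltage-gated sodium channels of central neurons and 2 of their intracellular partners. They are the pore-forming alpha subunits Scn1a, Scn2a, Scn3a and Scn8a, the auxiliary beta subunits Scn2b, Scn3b and Scn4b, and the FGF homologous factors Fgf12 and Fgf14. They were taken by gene symbol from a count table of 56748 genes from mouse cerebellum, and all 9 were found and all 9 had enough counts to be tested. RNA was sequenced from 6 C57BL/6J mice aged 90 to 120 days. The 3 MeHg mice were born to dams that drank water with 0.2 ppm methylmercury, an organic mercury compound toxic to neurons, from the start of pregnancy until birth. The 3 controls were born to dams given 0 ppm, and the labels state no exposure of either group after birth. By the labels each group holds 2 females and 1 male, and neither dam nor litter is given, so the p-values measure only the spread between these mice.

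A voltage-gated sodium channel opens on depolarisation, lets sodium into the neuron and drives the upstroke of the action potential. The alpha subunit forms the pore, and beta subunits are single-pass membrane proteins that tune gating and link the channel to cell adhesion. FGF homologous factors are not secreted as other FGFs are. They stay in the cell, bind the carboxy-terminal tail of the alpha subunit and adjust its inactivation and its placement at the axon initial segment, where action potentials start. In the cerebellum Scn8a and Scn4b are known for the fast and resurgent sodium currents of Purkinje cells, and loss of FGF14 causes an inherited ataxia in people.

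Totals were 14116088 to 20303833 counts per library. The label of cerebellum held against its markers: the granule cell gene Gabra6 stood at 435 to 797 CPM (counts scaled to library size) in all 6 libraries. Control replicate 2 is labelled female but had 0.25 CPM of Xist and 87.15 CPM of the Y-linked gene Ddx3y. These values were like those of control replicate 3, which is labelled male (0.07 and 81.72 CPM). Xist was high only in control replicate 1 (772.32 CPM) and MeHg replicates 1 and 3 (747.54 and 694.11 CPM). Sex by these genes was thus unbalanced between the groups, and the fit with sex as a term used the labels. MeHg replicate 2 stood apart in a list of 12 brainstem and midbrain markers, which summed to 201 CPM there and to 10.4 to 17.2 CPM in the other 5 libraries. Choroid plexus markers, 11 genes of the tissue that secretes cerebrospinal fluid, summed to 29.7 to 2020 CPM in controls and 1670 to 7130 CPM in MeHg.

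Of the 9 genes, Scn2a was called lower in MeHg at an adjusted p under 0.05 and none was called higher (edgeR's quasi-likelihood test over 16859 genes, which called 2.36% of them, 1.79% lower and 0.575% higher). In 4 genes, Scn2a, Scn8a, Scn2b and Fgf14, all 3 MeHg libraries lay below all 3 controls, a pattern that 15.5% of tested genes showed (29.4% did not overlap in either direction). None of the 9 had all MeHg libraries above all controls, as 13.9% of tested genes did. At an unadjusted p under 0.05 stood 6 of the 9, where 24.5% of tested genes did. DESeq2 called 3 of the 9, Scn2a, Scn2b and Fgf14, all lower, where it called 8.65% of its 15961 genes and 5.26% lower. Without MeHg replicate 2, edgeR called 3 of the 9 lower (Scn1a, Scn2a and Scn8a), where it called 6.33% of all genes, 4.16% lower. In that setting 6 of the 9 had both remaining MeHg libraries below all controls and 0 had them above, where 22.5% and 20.5% of genes did. Without control replicate 2 it called 0 of the 9, where it called 1.29% of all genes, 1.01% lower. There 4 of the 9 lay wholly below the remaining controls and 2, Scn3a and Scn3b, wholly above, where 22.5% and 21.8% of genes did. Scn4b and Fgf12 had the fold changes nearest to 0, and Scn3a and Scn3b, at low levels, were highest in MeHg replicate 2. The median log2 fold change of the 9 was -0.23, against 0.01 over all tested genes, and it was -0.07 once a trend with gene length was removed from each library.

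Stretches of DNA are printed for 4 of the genes. Scn2a, Fgf14 and Scn2b had the smallest edgeR p-values of the 9. Scn4b is the immediate neighbour of Scn2b, and its groups overlapped while those of Scn2b did not. The stretches lie before the canonical transcript start, which in Scn2a and Fgf14 (12 and 3 annotated starts) is inside the gene body. Each is the part of the 250 bases before the canonical start that lies outside annotated exons (GRCm39, GENCODE vM39), 5′ to 3′ on the gene's strand. Capitals mark a match to any of 5 motifs searched on both strands.
Scn2a, chr2:65498852-65499029, plus strand: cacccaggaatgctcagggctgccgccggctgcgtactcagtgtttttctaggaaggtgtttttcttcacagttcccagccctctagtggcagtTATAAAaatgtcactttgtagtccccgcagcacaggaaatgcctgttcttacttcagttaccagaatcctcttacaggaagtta
Fgf14, chr14:124430388-124430564, minus strand: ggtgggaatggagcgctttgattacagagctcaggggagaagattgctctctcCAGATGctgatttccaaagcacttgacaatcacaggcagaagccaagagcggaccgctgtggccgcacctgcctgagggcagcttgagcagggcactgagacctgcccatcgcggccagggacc
Scn2b, chr9:45028830-45029079, plus strand: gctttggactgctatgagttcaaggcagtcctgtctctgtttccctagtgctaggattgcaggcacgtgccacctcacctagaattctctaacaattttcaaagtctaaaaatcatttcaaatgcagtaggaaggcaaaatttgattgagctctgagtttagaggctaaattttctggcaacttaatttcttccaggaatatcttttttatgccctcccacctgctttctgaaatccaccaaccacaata
Scn4b, chr9:45049345-45049594, plus strand: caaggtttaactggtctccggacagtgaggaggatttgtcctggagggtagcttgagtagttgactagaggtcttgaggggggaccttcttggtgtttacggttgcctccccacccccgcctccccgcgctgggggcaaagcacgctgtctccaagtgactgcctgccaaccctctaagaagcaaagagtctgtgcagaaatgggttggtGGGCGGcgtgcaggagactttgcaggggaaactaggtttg
The Scn2a stretch holds 1 TATA box (TATAAA), a match present in 11.9% of the 250-base windows of 21770 protein-coding genes. The Fgf14 stretch holds 1 E-box of the form CAGATG (13% of windows), and the Scn4b stretch 1 GC box (GGGCGG, 36.3%). The percentages are for whole 250-base windows, while the Scn2a and Fgf14 stretches hold 178 and 177 bases. The whole Fgf14 window also holds 1 GC box, outside the printed stretch. The Scn2b stretch matched none of the 5 motifs. The cAMP response element TGACGTCA (1.69% of windows) and the core of the REST element (0.023%) matched in none of the 4 printed stretches. These motifs do not overlap one another in letters, and a match is only a description of the sequence.

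Among the alpha subunits the only call, and the smallest p of all 9 genes, was that of Scn2a, the channel of developing axons and of unmyelinated fibres such as those of granule cells. Its counts corresponded to 480, 425 and 461 CPM in control replicates 1, 2 and 3 and to 283, 344 and 241 CPM in MeHg replicates 1, 2 and 3. The highest MeHg library thus lay below the lowest control. Means were 455 ± 27.9 CPM (SD, n = 3) in controls and 289 ± 51.6 CPM in MeHg, a fall of 36.5% in the fit. The log2 fold change was -0.65 ± 0.12 (SE), with a 95% interval of -0.92 to -0.39 and an edgeR adjusted p of 0.0431. All 20 alternative fits kept the direction, with fold changes of -0.84 to -0.48 and adjusted p-values of 8.67e-11 to 0.370. The lowest of these came from edgeR without a filter on low counts, which called 2378 genes in all, against 398 in the main fit. The call was lost with a length offset (-0.51, adjusted p = 0.0735) and on leaving out control replicate 1, 2 or 3 or MeHg replicate 1 or 3 (adjusted p = 0.0534 to 0.207), and it was kept without MeHg replicate 2 (-0.79, adjusted p = 0.00610).

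Scn8a, the main channel of the mature axon initial segment and node, was at 332, 348 and 356 CPM in controls and at 302, 321 and 254 CPM in MeHg. The groups did not overlap, although control replicate 1 and MeHg replicate 2 lay close together. Its log2 fold change was -0.24 ± 0.09 (SE, 95% interval -0.44 to -0.04, edgeR adjusted p = 0.145). It was -0.07 with the length offset (adjusted p = 0.601) and -0.30 without MeHg replicate 2 (adjusted p = 0.0490). Scn8a has the longest exonic sequence of the 9, at 15766 bases.

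Scn1a, the channel of fast-spiking interneurons and Purkinje cells that is mutated in Dravet epilepsy, gave 251, 270 and 258 CPM in controls. In MeHg replicates 1 and 3 it was at 200 and 178 CPM, below every control, and in MeHg replicate 2 at 286 CPM, above every control. In the fit the log2 fold change was -0.23 ± 0.15 (SE, 95% interval -0.57 to 0.11, edgeR adjusted p = 0.378). Without MeHg replicate 2, the library with the high brainstem markers, it was -0.45 with an adjusted p of 0.0112. The part of those markers in the result was not tested. The lncRNA gene Gm13629 overlaps the first bases of Scn1a on the opposite strand (0.12 ± 0.15, adjusted p = 0.660).

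Scn3a, an alpha subunit used mainly by embryonic neurons, was far less abundant, at 65 to 363 counts per library. It was at 3.30, 9.38 and 5.97 CPM in controls and at 8.66, 23.7 and 9.64 CPM in MeHg. MeHg replicate 2 held the highest value, while MeHg replicate 1 lay below control replicate 2. The log2 fold change of 1.17 ± 0.45 (SE, 95% interval 0.16 to 2.18) did not pass (edgeR adjusted p = 0.156), and without MeHg replicate 2 it was 0.56 (adjusted p = 0.337). Scn3a was called higher by edgeR without both libraries numbered 2 (1.01, adjusted p = 0.0424) and without a filter on low counts (1.16, adjusted p = 3.03e-06). These fits called 1723 and 2378 genes in all, against 398 in the main fit. Without the filter the SE of Scn3a was 0.2, against 0.45.

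**Figure D1:**
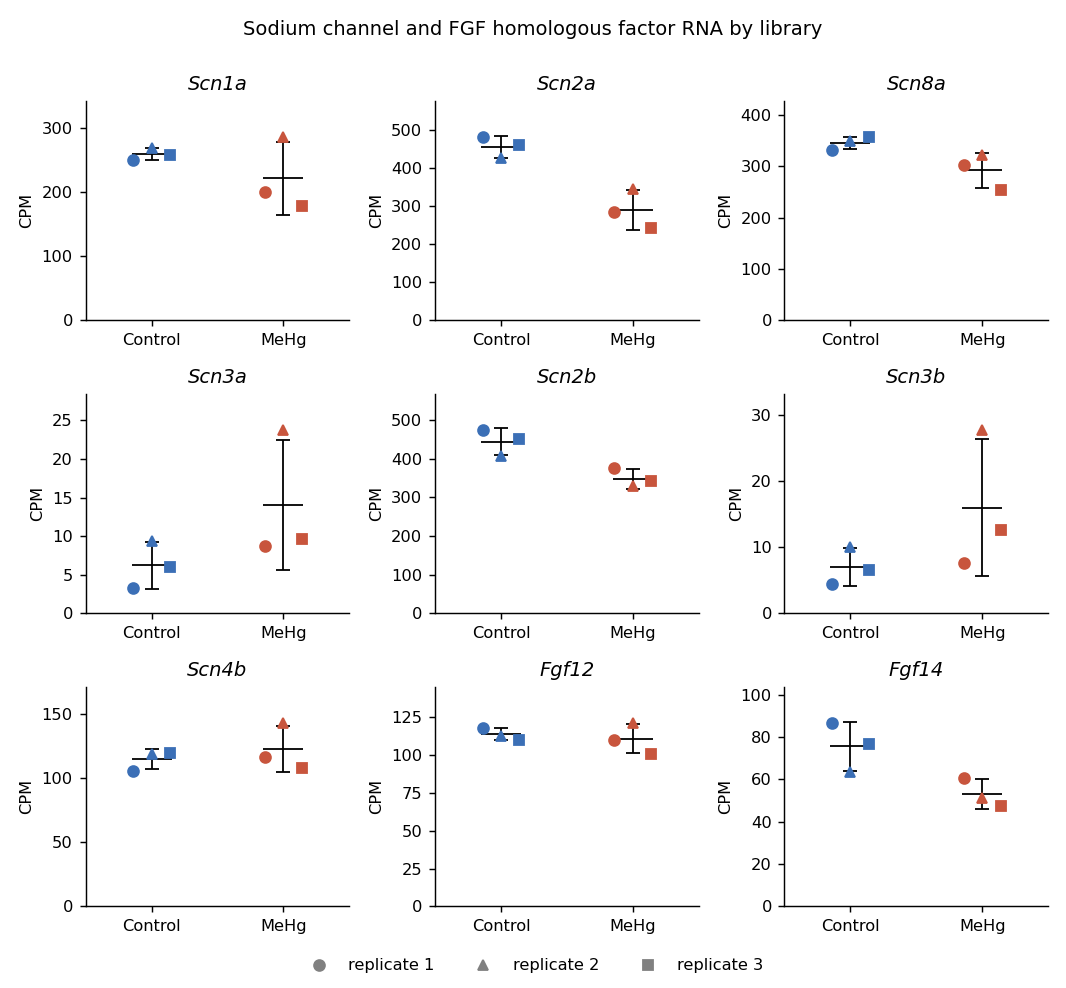
RNA level in CPM (vertical axes, from 0) of the 9 genes in each library, with the group mean and SD (n = 3) in black and the marker shape giving the replicate number. In Scn2a, Scn8a, Scn2b and Fgf14 all 3 MeHg points lie below all 3 control points, and in Scn1a, Scn3a, Scn3b, Scn4b and Fgf12 the MeHg replicate 2 triangle is the highest of the 6.

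Of the beta subunits, Scn2b, which is joined to the alpha subunit by a disulphide bond, had separate groups but narrowly missed the threshold. It was at 473, 407 and 452 CPM in controls and at 377, 328 and 341 CPM in MeHg. All MeHg libraries lay below all controls. Its log2 fold change was -0.35 ± 0.08 (SE, 95% interval -0.54 to -0.16, edgeR adjusted p = 0.0576), and it ranged from -0.41 to -0.30 over 20 alternative fits (adjusted p = 0.000916 to 0.370). The lowest of these adjusted p-values came from edgeR without a filter on low counts, which called 2378 genes in all, against 398 in the main fit. DESeq2 called Scn2b, with an adjusted p of 0.00262.

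Scn4b, the beta subunit whose cytoplasmic tail blocks the open pore and yields resurgent current, had overlapping groups. Its levels were 106, 119 and 120 CPM in controls and 117, 143 and 108 CPM in MeHg. The estimate was a log2 fold change of 0.09 ± 0.10 (SE, edgeR adjusted p = 0.622), and its 95% interval of -0.14 to 0.32 does not contain the value of Scn2b. The fold change was -0.02 without MeHg replicate 2. Scn2b and Scn4b lie side by side on chromosome 9 in the same orientation, 8.32 kb apart (Scn2b 45029080 to 45041368, Scn4b 45049693 to 45065450, mm39). The difference between their fold changes was not tested.

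Scn3b, a beta subunit that is bound without a disulphide bond, was at 4.41, 10.1 and 6.61 CPM in controls. In MeHg it was at 7.61, 27.7 and 12.6 CPM, so that replicate 2 was again the highest and the groups overlapped. Its fold change on the log2 scale was 1.17 ± 0.45 (SE, 95% interval 0.16 to 2.19, edgeR adjusted p = 0.158) and 0.52 without MeHg replicate 2. Scn3b was called higher by edgeR without a filter on low counts (1.17, adjusted p = 1.1e-06) and was at 0.90 without both libraries numbered 2 (adjusted p = 0.0713). Without the filter the SE of Scn3b was 0.19, against 0.45, and 2378 genes were called in all, against 398. Among the 9 genes Scn3a and Scn3b were nearest to each other, by the root mean square difference of mean-centred log2 CPM over the 6 libraries. It was 0.197 between them, against 0.722 to 1.104 between either and any other of the 9. Some pairs of the other genes lay closer than this, the closest being Scn4b and Fgf12 (0.118).

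Fgf14, the factor best known from the axon initial segment of cerebellar neurons, was at 86.5, 63.7 and 76.8 CPM in controls and at 60.8, 51.4 and 47.3 CPM in MeHg. The lowest control, replicate 2, lay just above the highest MeHg library, replicate 1. Fgf14 had a log2 fold change of -0.51 ± 0.13 (SE, 95% interval -0.80 to -0.22), equal to 29.7% less RNA, which missed the threshold (edgeR adjusted p = 0.0645). DESeq2 called it (adjusted p = 0.00344), and over 20 alternative fits it lay between -0.62 and -0.39 (adjusted p = 1.17e-05 to 0.370). The lowest of these adjusted p-values came from edgeR without a filter on low counts, which called 2378 genes in all, against 398 in the main fit. The 3′ end of Fgf14 overlaps the end of Itgbl1 on the opposite strand (log2 fold change -0.37 ± 0.18, edgeR adjusted p = 0.242), and since the strand setting is not given, reads shared there cannot be told apart.

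Fgf12, another factor of the same family, had overlapping groups. Its levels were 118, 113 and 110 CPM in controls and 110, 121 and 101 CPM in MeHg. Fgf12 had a log2 fold change of -0.04 ± 0.07 (SE, edgeR adjusted p = 0.769), with a 95% interval of -0.21 to 0.12 that lies wholly above the estimate for Fgf14; the difference between both genes was not tested. Both are long genes, Fgf12 spanning 593 kb of chromosome 16 and Fgf14 699.2 kb of chromosome 14. Their exonic lengths of 6203 and 4182 bases are below those of all 4 alpha subunits.

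**Figure D2:**
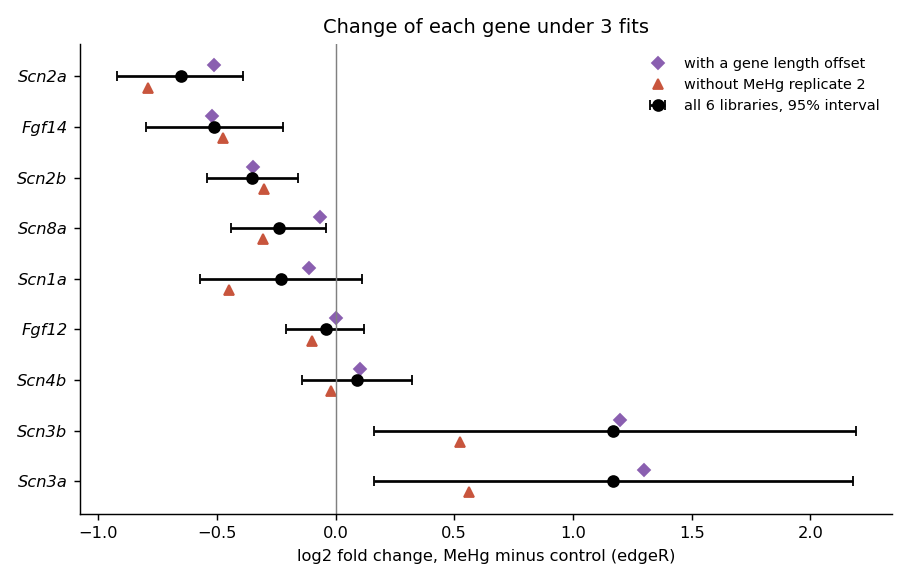
Log2 fold change of MeHg against control for the 9 genes (horizontal axis), from edgeR with all 6 libraries and its 95% interval (black), with a gene length offset (diamonds) and without MeHg replicate 2 (triangles). The length offset moves Scn8a from -0.24 to -0.07 and leaves Scn2b at -0.35, while leaving out MeHg replicate 2 moves Scn3a from 1.17 to 0.56 and Scn1a from -0.23 to -0.45.

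In the plot of fold changes the length offset moved some genes and not others. For the alpha subunits Scn1a, Scn2a and Scn8a, with exonic lengths of 11146 to 15766 bases, the offset brought the fold change nearer to 0 (to -0.11, -0.51 and -0.07). Scn3a, with 12717 bases, also moved upward, from 1.17 to 1.30, which for its positive value was away from 0. Fgf14 (-0.52 with the offset) and Scn2b (-0.35), with 4182 and 4656 bases, kept their values. With the offset edgeR called 0 of 16859 genes, against 3583 at an unadjusted p under 0.05, and Scn2a, Scn2b and Fgf14 had adjusted p-values of 0.0735, 0.0915 and 0.0977.

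Levels can be compared between genes only per length, for which the authors' FPKM was used. In controls the order among the alpha subunits was Scn2a (33.2 ± 2.12 FPKM), Scn1a (21.9 ± 0.756), Scn8a (20.6 ± 0.710) and Scn3a (0.459 ± 0.224), and Scn1a and Scn8a lay close together, at 21.2 to 22.7 and 19.8 to 21.2 FPKM. Among the beta subunits Scn2b (89.6 ± 7.07 FPKM) stood above Scn4b (21.7 ± 1.46) and Scn3b (1.21 ± 0.493). Fgf12 (17.2 ± 0.596) and Fgf14 (17.0 ± 2.62) did not differ beyond their spread in controls. In MeHg, Fgf12 was at 16.6 ± 1.32 FPKM and Fgf14 at 11.9 ± 1.56, and the 2 no longer overlapped.

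Summed over the 4 alpha subunits, the level was 76.4, 75.0 and 77.1 FPKM in controls and 56.0, 69.0 and 48.5 FPKM in MeHg. Each MeHg library was thus below each control in total alpha subunit RNA. Within that sum Scn2a made up 46.0%, 41.3% and 43.6% in controls and 36.8%, 35.8% and 36.3% in MeHg. Its share in MeHg was almost the same in the 3 libraries, although their sums differed. Scn8a made up 27.0% ± 0.922 (SD, n = 3) in controls and 30.2% ± 2.54 in MeHg, and Scn1a 28.7% ± 1.32 and 31.8% ± 2.28, each with overlapping groups. The share of Scn3a was 0.604% ± 0.302 in controls and 1.70% ± 0.713 in MeHg, without overlap. These shares are descriptions of each library's composition and were given no test.

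Of the 4 FGF homologous factors Fgf14 made up 30.7%, 25.1% and 27.7% in controls and 23.4%, 19.9% and 19.8% in MeHg. Every MeHg value was below the lowest control. Fgf13 took its largest share, 16.7%, in MeHg replicate 2.

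**Figure D3:**
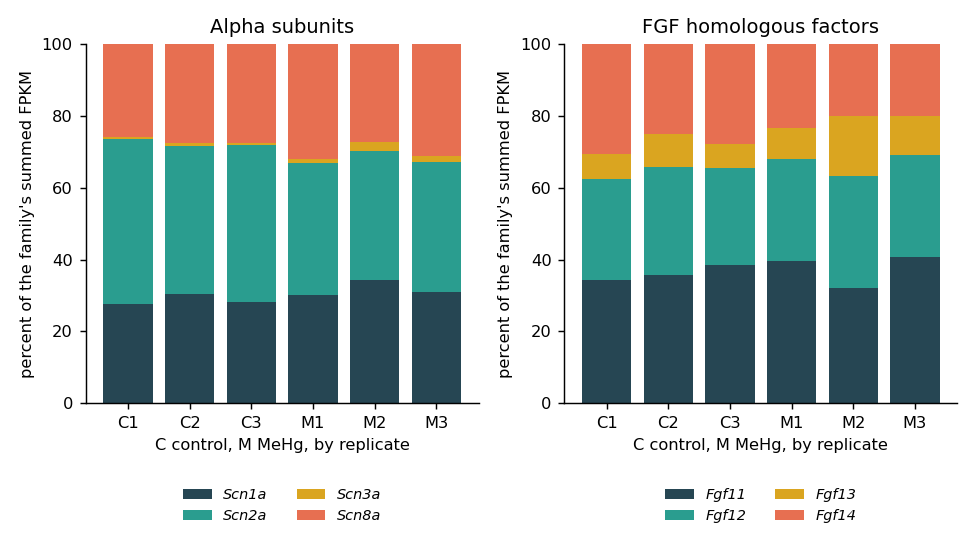
Each gene's percent (vertical axis) of its family's summed FPKM in each of the 6 libraries, for 4 alpha subunits and 4 FGF homologous factors. Scn2a takes 41.3% to 46.0% in controls and 35.8% to 36.8% in MeHg, and Fgf14 takes at least 25.1% in controls and at most 23.4% in MeHg.

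Other genes of the sodium channel system came from lists written with earlier results of these data known. Of 12 further subunits and leak channel genes, 8 were tested (median log2 fold change 0.03). Of the 8, 0 were called by edgeR in either direction, where 2.36% of tested genes were. The sodium leak channel Nalcn, which carries resting sodium current, was at a log2 fold change of -0.16 ± 0.09 (SE), and its large accessory proteins Unc79 (-0.39 ± 0.11, edgeR adjusted p = 0.0872) and Unc80 (-0.29 ± 0.09, adjusted p = 0.116) each had 3 MeHg values under the lowest control. Without MeHg replicate 2 edgeR called 3 of the 8 lower, beside 4.16% of all genes. Scn7a was at 0.80 ± 0.48 from 1.15 CPM in controls. The muscle channel Scn4a and the sensory neuron channels Scn10a and Scn11a had too few counts to be tested.

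Neither of the remaining FGF homologous factors, Fgf13 and Fgf11, was called. Fgf13 was at 18.4, 22.4 and 18.3 CPM in controls and 21.5, 41.5 and 25.0 CPM in MeHg, a log2 fold change of 0.57 ± 0.22 (SE, edgeR adjusted p = 0.163) with its highest value in MeHg replicate 2. Fgf11 overlapped between groups at -0.06 ± 0.10 (adjusted p = 0.766). Scn3a, Scn3b and Fgf13 therefore share MeHg replicate 2 as their highest library. The highest library of Scn1a, Scn4b and Fgf12 was also MeHg replicate 2, at 286, 143 and 121 CPM. In that library the serotonin gene Tph2 was at 67.5 CPM and the dopamine transporter gene Slc6a3 at 20.7 CPM, against at most 1.48 and 0.150 CPM elsewhere. Of the 12 brainstem and midbrain markers 4 were tested, all 4 with higher fold changes in MeHg and 0 called, and Hoxb3 was at 0 in 5 of the libraries. The part of these markers in the levels of Scn3a, Scn3b and Fgf13 was not tested.

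**Figure D4:**
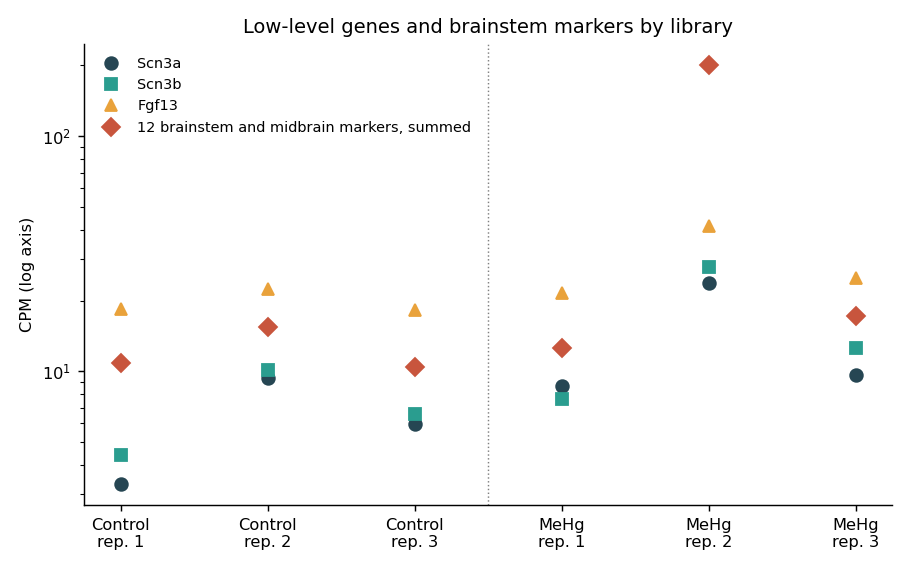
Level in CPM on a log axis of Scn3a, Scn3b and Fgf13, and the summed level of 12 brainstem and midbrain markers, in each of the 6 libraries. All 4 series have their highest point in MeHg replicate 2, at 23.7, 27.7, 41.5 and 201 CPM.

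Of 20 genes of the axon initial segment and node of Ranvier, where sodium channels are anchored, 15 had a lower fold change in MeHg (median -0.15). Of the 20, 1 was called lower, where 1.79% of tested genes were. Sptan1, the alpha spectrin of the submembrane lattice, fell from 1770 ± 77.5 CPM (SD, n = 3) to 1390 ± 36.0 CPM, a log2 fold change of -0.35 ± 0.07 (SE, edgeR adjusted p = 0.0489). The potassium channel Kcna1 (-0.53 ± 0.12), Ank2 (-0.39 ± 0.09) and the microtubule minus-end protein Camsap2 (-0.29 ± 0.07) had adjusted p-values of 0.0532, 0.0532 and 0.0638. Ank3, which encodes ankyrin G, the scaffold that anchors sodium channels, was named after its values were seen and was at 519 ± 23.5 CPM in controls and 413 ± 58.3 CPM in MeHg (-0.33 ± 0.10, adjusted p = 0.0988). In 9 of the 20 all MeHg libraries lay below all controls, where 15.5% of tested genes did. Without MeHg replicate 2 edgeR called 8 of the 20 lower, beside 4.16% of all genes, and with the length offset it called 0 and the median was -0.04.

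Of 20 genes that modify or regulate sodium channels, 2 were called lower and 0 higher (median -0.06), where 1.79% and 0.575% of tested genes were. Nedd4l, a ubiquitin ligase that removes sodium channels from the membrane, fell from 109 ± 1.03 CPM to 84.9 ± 3.75 CPM (-0.35 ± 0.06, edgeR adjusted p = 0.0431). Akap9, a kinase-anchoring scaffold, fell from 170 ± 13.5 CPM to 129 ± 6.25 CPM (-0.40 ± 0.07, adjusted p = 0.0431). Prkaca, the catalytic subunit of protein kinase A (0.21 ± 0.08, adjusted p = 0.154), had every MeHg value above the highest control but did not pass the test. With the length offset 0 of the 20 were called lower. On dropping replicate 1 or 3 of the controls, or MeHg replicate 3, edgeR called 0 of all genes (3042, 2572 and 3099 at an unadjusted p under 0.05), so Sptan1, Nedd4l and Akap9 were not called there. Without MeHg replicate 1 edgeR called 2 genes in all and 0 lower, so Sptan1, Nedd4l and Akap9 were not called lower there either. Without control replicate 2 it called lower 0 of the 20 axon initial segment and node genes, and 1 of the 20 regulators.

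For context, edgeR called 3 of 21 calcium channel subunit genes (median -0.06) and 2 of 42 potassium channel genes (median -0.11) lower. It called none of either list higher, and of all tested genes it called 1.79% lower and 0.575% higher. The medians stand beside the -0.23 of the 9 sodium channel genes, and no difference between the lists was tested.

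Cell type markers also differed between the groups. All 15 granule cell markers had lower fold changes in MeHg, from -0.58 to -0.13. Of the 15, 5 were called lower, where 1.79% of tested genes were. Their summed level was 9550 to 10200 CPM in controls and 7110 to 8210 CPM in MeHg. The estimate for Scn2a, -0.65, was below that of each of the 15, but its 95% interval (-0.92 to -0.39) contains the lowest of them. The difference between Scn2a and these markers was not tested. Of 12 Purkinje cell markers 11 had a lower fold change, between -0.36 and 0.06 in all, with 0 called and sums of 10400 to 11400 CPM and 7950 to 10300 CPM. Interneuron markers summed to 1620 to 1650 CPM and 1610 to 1700 CPM. Other lists ran the opposite way: all 11 oligodendrocyte markers had higher fold changes in MeHg (median 0.32, 0 called), with sums of 5420 to 6210 CPM in controls and 6120 to 8370 CPM in MeHg. All 10 endothelial markers also had higher fold changes, with sums of 196 to 201 CPM and 202 to 264 CPM. Of the 10, 1 was called, Flt1 (0.44 ± 0.09, edgeR adjusted p = 0.0440), where 0.575% of tested genes were called higher. In whole tissue, fewer cells of a type and less RNA per cell cannot be told apart. With the choroid plexus score in the model Scn2a was at -0.57 (edgeR adjusted p = 0.370, and 0 genes called in all, with 1950 at an unadjusted p under 0.05), Fgf14 at -0.55 and Scn2b at -0.38, while Scn1a was at -0.06 and Scn8a at -0.11. In the same fit Scn3a was at 1.88, Scn3b at 1.72 and Scn4b at 0.28. Scn3a, Scn3b, Scn4b, Fgf14 and Scn2b lay further from 0 than without the score, and Scn1a, Scn2a, Scn8a and Fgf12 nearer. The part of these marker lists in the results was not tested.

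The profile of each gene over the 6 libraries was also set beside those of 10212 other genes at 10 CPM or more, by the root mean square difference of mean-centred log2 CPM. Nearest to Scn2a were Setbp1 (0.044), Ppargc1b (0.057) and the calmodulin-dependent kinase Camk4 (0.060), whose own fold changes were -0.63, -0.72 and -0.62. Fgf14 was nearest to Bdp1 (0.054), Eps8 (0.056) and Peak1 (0.058). For Scn8a the nearest were Kansl1 (0.017), Pcdhb17 (0.019) and Elapor2 (0.032), and for Scn4b Astn1 (0.028), Grm7 (0.030) and Ccdc149 (0.034). Among the 9 genes themselves Fgf14 was nearest to Scn2b (0.121) and Scn2a to Fgf14 (0.193).

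The family also shares position in the genome. Scn3a (chromosome 2, 65287462 to 65397971, minus strand) and Scn2a (65451115 to 65597791, plus strand) are neighbours on opposite strands, 53.14 kb apart with 0 protein-coding genes between them, and had fold changes of opposite sign. Scn1a (66101122 to 66271184) lies 503.3 kb beyond Scn2a, followed by Scn9a, named for its position after its values were seen (0.40 ± 0.26, edgeR adjusted p = 0.375). Scn8a is on chromosome 15 (100767739 to 100943819) and Scn3b on chromosome 9 (40180513 to 40202914). Fgf12 lies on chromosome 16 (27978850 to 28571820) and Fgf14 on chromosome 14 (124215319 to 124914539). All positions are gene bodies in mm39 as the count table gives them.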

How the data were processed

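The authors deposited raw counts per gene and FPKM values; FPKM equals the count divided by the table's gene length and a library total. Reads were paired-end 150 base pair NovaSeq reads per the labels, and the submitters' processing notes name mm39 and DESeq2. The sources used here do not give the aligner, the counting program or the strand setting. Counts were filtered with filterByExpr (16859 of 56748 genes kept), scaled by TMM and compared with edgeR 4.0.16 (R 4.3.3) by the quasi-likelihood test with group as the only term and Benjamini-Hochberg adjustment. CPM is the count over the scaled library size. SE is the absolute log2 fold change over the square root of F. Shares used deposited FPKM.

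The 9 genes and all lists were chosen with earlier results of these data known. Some listed genes are not reported here. Named were the 9 genes, in each pathway list the called genes or those with the smallest p up to 4, and the 3 genes nearest in profile to Fgf14, Scn2a, Scn8a and Scn4b. Alternatives were other scalings, filters and tools (DESeq2 1.42.0, limma 3.58.1, on FPKM with 1 or 0.1 added), covariates, lowess offsets for gene length and GC content, and left-out libraries. Counts within lists, counts of calls by direction and of groups that do not overlap, and shares over all genes under these alternatives were added after seeing the data. The procedure was tested on simulated data. Libraries of a group differed by 7.77 to 19.7 in chi-square per degree of freedom, so none was a copy of another in its group. Libraries of different groups were not compared in this way. Of the table's identifiers 98.7% were found in GENCODE vM39.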

Additional observations from a re-analysis of the deposited data

How the results depend on the processing

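Across all genes edgeR called 398, against 197 with upper-quartile scaling, 2378 without a filter, 1380 with DESeq2, 609 with labelled sex as a term, 1723 without both libraries numbered 2 and 1653 at an adjusted p under 0.1. It called 0 with either offset (length, or length and GC) or the choroid plexus covariate (3583, 3514 and 1950 at an unadjusted p under 0.05), as did limma on log2(FPKM + 1) or (FPKM + 0.1) (3628 and 3633). Leaving out 1 library gave 0 to 1091 calls. Of the 9 genes 1 was called, against 6 without a filter (4 lower, and Scn3a and Scn3b higher), 3 with DESeq2 (all lower), 5 without both libraries numbered 2 (4 lower, and Scn3a higher), 3 at an adjusted p under 0.1, 0 with the offsets, the covariate or limma on FPKM, and 0 to 3 without 1 library. As a block, the replicate number gave 648 calls and 5 of the 9 (3 lower, and Scn3a and Scn3b higher, both at an adjusted p of 0.033). Same-numbered libraries correlated at 0.19, 0.35 and -0.24, and control replicate 1 correlated best with MeHg replicate 3 (0.36), so the numbers were not taken as pairs. Fgf12 turned positive with the length offset (0.003), with length and GC (0.065) and without MeHg replicate 3 (0.021), with a range of -0.099 to 0.021 on leaving out 1 library. Scn4b turned negative without MeHg replicate 2 (-0.021), with a range of -0.021 to 0.18. The other 7 genes kept their direction in all 20 fits. The cause of these changes was not tested. Scn3a and Scn3b had as few as 65 and 87 counts in a library.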
